A study of Mus musculus with 6 samples.

Results

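The microvillus core and adhesion structure genes are 10 genes whose proteins build the finger-like microvilli of the intestinal brush border: Vil1, Pls1, Espn, Eps8, Myo1a, Ezr, Cdhr2, Cdhr5, Ush1c and Myo7b. They were selected by gene symbol, though with earlier results of these data known. The rule uses signal only to pick a gene's brightest probe set. All 10 were found among 19938 genes, each with 1 probe set, so none was picked by signal. Their transcripts were measured in whole ileum of 6 mice, 1 Affymetrix mouse gene array per mouse. The 3 control mice carried Villin-CreERT2, a tamoxifen-inducible Cre recombinase under the promoter of villin, the gene Vil1 of this set. The 3 other mice carried Villin-CreERT2 together with GATA6 flox/flox alleles and are labelled GATA6 KO. Both groups received tamoxifen on 5 consecutive days at 6 to 8 weeks of age, and the ileum was taken 28 days later, at 10 to 12 weeks by the treatment text and 10 weeks by the sample descriptions. The Cre acts in the epithelium, while whole ileum also holds muscle, connective tissue, nerves and immune cells. In such bulk tissue, fewer cells of a type and less RNA per cell cannot be told apart.

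Microvilli are packed on the apical face of absorptive enterocytes, each around a core of parallel actin filaments. Villin, plastin 1 and espin bundle the filaments, Eps8 caps them at the tip, and the motor myosin 1a and the linker ezrin tie the core to the membrane. Neighbouring microvilli are held at even distance by threads of 2 protocadherins, Cdhr2 and Cdhr5, which meet at their tips. Inside the tip, these bind the scaffold Ush1c (harmonin) and the motor myosin 7b, and related proteins build the tip links of hair cell stereocilia in the inner ear.

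Before the members, the arrays themselves were checked. Gata6, the targeted gene, was not lower: control arrays read 6.31, 6.33 and 6.50 on the log2 scale, and the arrays labelled Gata6 KO read 6.94, 6.81 and 6.86, which was higher (limma adjusted p = 0.0162). The adjusted p was 0.0501 to 0.0623 when control replicate 1 or any one Gata6 KO array was dropped. The labels therefore serve here as names of the arrays, called Gata6 KO arrays. It is not known here whether this probe set overlaps the floxed exons, and it can check the deletion only if it does. Control replicate 3 had the signals of a male, with 2.31 for Xist, the silencer of the inactive X chromosome, and 5.30 for the Y-linked gene Eif2s3y. On the other 5 arrays Xist read 7.39 to 7.81 and Eif2s3y 0.27 to 0.62, the signals of females. Control replicate 1 stood apart for Car1, a colonic carbonic anhydrase, at 10.96 against 5.68 and 6.87 in the other controls and 12.20, 12.18 and 12.14 in the Gata6 KO arrays. For this gene it thus read nearer to the Gata6 KO arrays than to the other controls. Results are therefore also given without these arrays.

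In the arrays labelled Gata6 KO, 4 of the 10 members fell, 0 rose and 6 did not pass at a limma adjusted p under 0.05 over all genes, where 3.25% of all genes tested were lower and 4.99% higher. Those that fell were the filament bundlers Vil1, Pls1 and Espn and the membrane-linking motor Myo1a, by 1.27-fold to 1.60-fold. The protocadherins Cdhr2 and Cdhr5, their scaffold Ush1c and the tip protein Eps8 had log2 changes from -0.13 to -0.04 and overlapping groups. The motor Myo7b and the linker Ezr had log2 changes of -0.46 and -0.35, within the range of those that fell. Their groups lay apart, but neither was called (limma adjusted p = 0.0618 and 0.109). All 10 changes were negative, from -0.68 to -0.04 on the log2 scale with a median of -0.35, while the median over all genes was 0.00. The groups did not overlap, with the Gata6 KO arrays lower, in 6 of the 10 members, against 12.6% of all genes. Without control replicate 3, which leaves arrays with female signals alone, 1 member, Myo1a, was called. The count was also 1 without Gata6 KO replicate 1 or 2, again Myo1a, and 2 without Gata6 KO replicate 3, Myo1a and Myo7b.

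**Figure D1:**
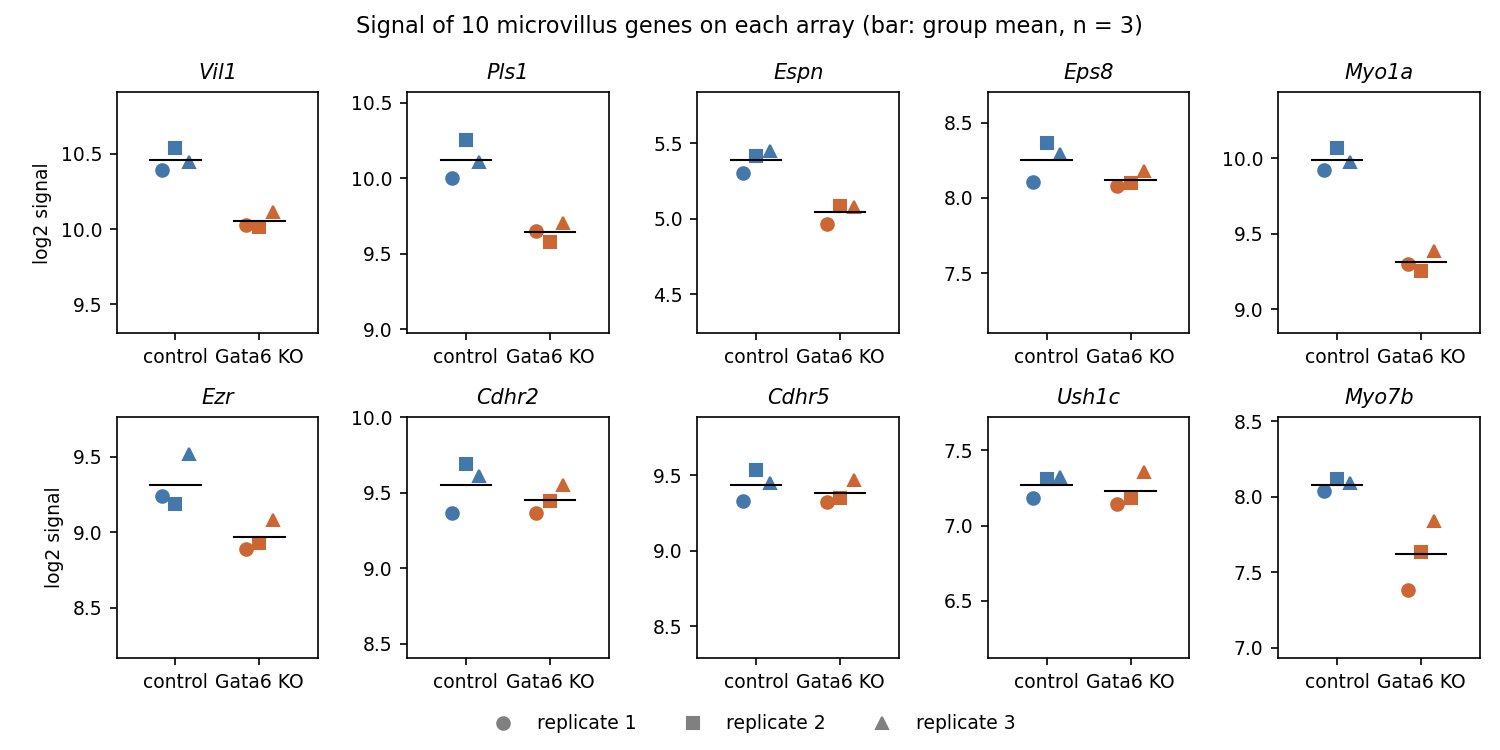
Log2 signal (vertical axis) of each of the 10 genes on each array, with control arrays in blue, Gata6 KO arrays in orange and replicates by symbol. Each panel spans the same log2 range around its own control mean; the groups lie apart for Vil1, Pls1, Espn, Myo1a, Ezr and Myo7b and overlap for Eps8, Cdhr2, Cdhr5 and Ush1c.

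The stretches of DNA just before the starts of 5 members are shown because 3 of these genes fell and 2, the protocadherins, did not pass. They are RefSeq windows of 300 bases on assembly GRCm38.p6, from 250 bases before the annotated start to 50 after it, read 5′ to 3′ on the gene's strand. Capitals mark matches to a GATA factor motif, with the letters AGATAA, or likewise AGATAG, or likewise TGATAA, or likewise TGATAG, on either strand.
Myo1a, chr10:127705006-127705305, plus strand: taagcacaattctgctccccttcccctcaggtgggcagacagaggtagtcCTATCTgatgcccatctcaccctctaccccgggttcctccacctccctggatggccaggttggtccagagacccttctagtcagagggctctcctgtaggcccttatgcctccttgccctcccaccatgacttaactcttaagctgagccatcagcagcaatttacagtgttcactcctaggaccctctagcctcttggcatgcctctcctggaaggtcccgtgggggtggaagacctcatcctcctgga
Pls1, chr9:95845230-95845529, minus strand: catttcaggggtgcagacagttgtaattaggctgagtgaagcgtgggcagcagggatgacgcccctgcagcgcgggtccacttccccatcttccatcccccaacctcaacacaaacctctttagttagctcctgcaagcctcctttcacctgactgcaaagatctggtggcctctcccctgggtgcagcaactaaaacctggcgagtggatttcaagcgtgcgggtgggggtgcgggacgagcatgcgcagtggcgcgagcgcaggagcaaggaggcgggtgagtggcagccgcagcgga
Vil1, chr1:74409134-74409433, plus strand: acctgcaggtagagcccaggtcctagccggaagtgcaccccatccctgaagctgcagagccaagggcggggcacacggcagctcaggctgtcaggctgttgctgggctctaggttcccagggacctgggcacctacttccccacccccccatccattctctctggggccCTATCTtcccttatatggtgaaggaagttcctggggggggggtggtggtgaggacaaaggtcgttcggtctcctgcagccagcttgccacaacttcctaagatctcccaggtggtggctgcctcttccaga
Cdhr2, chr13:54701213-54701512, plus strand: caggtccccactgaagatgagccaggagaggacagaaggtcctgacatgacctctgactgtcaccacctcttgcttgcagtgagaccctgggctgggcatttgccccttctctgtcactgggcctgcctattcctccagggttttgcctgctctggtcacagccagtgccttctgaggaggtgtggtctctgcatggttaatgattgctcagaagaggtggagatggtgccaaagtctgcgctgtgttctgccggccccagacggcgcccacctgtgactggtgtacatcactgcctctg
Cdhr5, chr7:141276737-141277036, minus strand: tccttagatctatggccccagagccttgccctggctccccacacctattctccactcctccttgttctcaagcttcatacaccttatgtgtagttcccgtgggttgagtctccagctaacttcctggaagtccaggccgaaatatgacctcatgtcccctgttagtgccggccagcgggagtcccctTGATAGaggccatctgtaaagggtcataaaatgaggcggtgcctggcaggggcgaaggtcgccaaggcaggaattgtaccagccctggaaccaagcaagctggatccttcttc

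Windows were used for 8 of the 10 members, 10 windows in all because Espn has several starts. None was used for Eps8 and Myo7b, so whether theirs hold a match was not examined. Of these windows 3 held a GATA match: that of Vil1, 81 to 76 bases before the start, that of Myo1a, 200 to 195 bases before it, and that of Cdhr5, 63 to 58 bases before it. Among all 32817 promoter windows of this length, 29.8% held such a match. Matches thus stood both in genes that fell and in one that did not pass, and neither Pls1 nor Cdhr2 had one. A match to the CDX motif TTTATG stood in Cdhr5, 39 to 34 bases before the start, and in 1 of the windows of Espn, against 11.9% of all windows. The HNF1 motif GTTAAT matched in Cdhr2, 54 to 49 bases before its start, against 7.1% of all windows. The HNF4 motif CAAAGTCCA, held by 0.5% of all windows, matched in none of the 10. These are matches of letters and not measured binding.

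Of the actin bundlers, Vil1 encodes villin, which both bundles and severs filaments. Its log2 signal was 10.39, 10.54 and 10.44 in controls and 10.03, 10.01 and 10.11 in the Gata6 KO arrays. Every Gata6 KO array lay below every control, and the mean fell from 10.46 ± 0.07 to 10.05 ± 0.05 (SD, n = 3). This was a 1.33-fold decrease (log2 change -0.41, SE 0.08, limma adjusted p = 0.0225). Both groups carry the transgene driven by the villin promoter, and the level of Cre was not analysed here. Without control replicate 3, Vil1 had a log2 change of -0.41 and a limma adjusted p of 0.0732, so the call was lost at about the same size. It was also lost without Gata6 KO replicates 1, 2 or 3 (0.0708, 0.0954 and 0.0607).

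Pls1 encodes plastin 1, also called fimbrin, which sets filaments close together. It read 10.00, 10.25 and 10.11 in controls and 9.65, 9.57 and 9.71 in the Gata6 KO arrays. The groups lay apart, and Pls1 fell 1.39-fold (log2 change -0.48, SE 0.09, limma adjusted p = 0.0224). The limma adjusted p was 0.0769 without control replicate 3. Leaving out Gata6 KO replicate 1, 2 or 3 in turn gave 0.0706, 0.0969 and 0.0638, each without a call. Espn encodes espin, a bundler that lengthens actin protrusions and is mutated in inherited deafness. Its signal was 5.31, 5.42 and 5.45 in controls and 4.97, 5.09 and 5.08 in the Gata6 KO arrays. The groups again did not overlap, with a 1.27-fold decrease (log2 change -0.35, SE 0.08, limma adjusted p = 0.0420). Espn lost its call whichever of the 6 arrays was left out, with limma adjusted p from 0.0572 to 0.130.

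Eps8 caps and bundles filaments at the microvillus tip. It read 8.10, 8.36 and 8.29 in controls and 8.08, 8.10 and 8.18 in the Gata6 KO arrays. Control replicate 1 lay among the Gata6 KO arrays, and Eps8 did not pass (log2 change -0.13, 95% interval -0.34 to 0.08, limma adjusted p = 0.417). Of its relatives, Eps8l2 had a log2 change of -0.30 and Eps8l3, an intestinal paralogue, one of -0.10, and neither passed.

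Between core and membrane, Myo1a encodes the single-headed myosin that forms the lateral bridges of the microvillus. It had the largest change of the 10 members. Its log2 signal was 9.93, 10.07 and 9.98 in controls and 9.30, 9.25 and 9.39 in the Gata6 KO arrays. The gap between the groups was wider than the spread within either, from 9.99 ± 0.07 to 9.31 ± 0.07 (SD, n = 3). Myo1a fell 1.60-fold (log2 change -0.68, SE 0.08, limma adjusted p = 0.00375). The call held whichever of the 6 arrays was left out, with log2 changes of -0.71 to -0.64 and adjusted p of 0.0111 to 0.0256.

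Ezr encodes ezrin, which in its phosphorylated form joins membrane proteins to actin. It read 9.24, 9.19 and 9.52 in controls and 8.89, 8.93 and 9.09 in the Gata6 KO arrays. The groups did not overlap, but the controls were spread by 0.18 (SD, n = 3), with replicate 3 above the others. Its log2 change of -0.35 (SE 0.11, 95% interval -0.61 to -0.09) did not pass (limma adjusted p = 0.109), and was -0.25 without control replicate 3.

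In the adhesion complex, Cdhr2 encodes a protocadherin that is one partner of the thread between microvilli. Its signal was 9.37, 9.69 and 9.61 in controls and 9.37, 9.44 and 9.55 in the Gata6 KO arrays. The lowest control and the lowest Gata6 KO array read alike, and the log2 change of -0.10 (SE 0.11) had a 95% interval from -0.35 to 0.15 (limma adjusted p = 0.613). Cdhr5, the mucin-like protocadherin on the other side of the thread, read 9.33, 9.54 and 9.45 in controls and 9.33, 9.35 and 9.47 in the Gata6 KO arrays. The groups overlapped here too, with a log2 change of -0.06 (SE 0.09, interval -0.26 to 0.15, limma adjusted p = 0.730). These intervals do not hold a decrease as large as that of Myo1a. The change of Espn, -0.347, lies just within the interval of Cdhr2, which starts at -0.349. It lies outside that of Cdhr5, which starts at -0.261.

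Ush1c, whose PDZ domains bind the tails of both protocadherins, read 7.18, 7.31 and 7.32 in controls and 7.14, 7.18 and 7.35 in the Gata6 KO arrays. The highest of all 6 values was a Gata6 KO array, and the log2 change was -0.04 (SE 0.09, interval -0.25 to 0.16, limma adjusted p = 0.797). Its sign turned, to 0.01, when each array was centred on its median. Myo7b, the motor that brings the complex to the tip, read 8.04, 8.12 and 8.09 in controls and 7.38, 7.64 and 7.84 in the Gata6 KO arrays. The controls were close together, at 8.08 ± 0.04, and the Gata6 KO arrays lay below them but apart from each other, at 7.62 ± 0.23 (SD, n = 3). The log2 change of -0.46 (SE 0.12, interval -0.74 to -0.18) did not pass, at a limma adjusted p of 0.0618. It passed without Gata6 KO replicate 3 (log2 change -0.57, limma adjusted p = 0.0477).

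**Figure D2:**
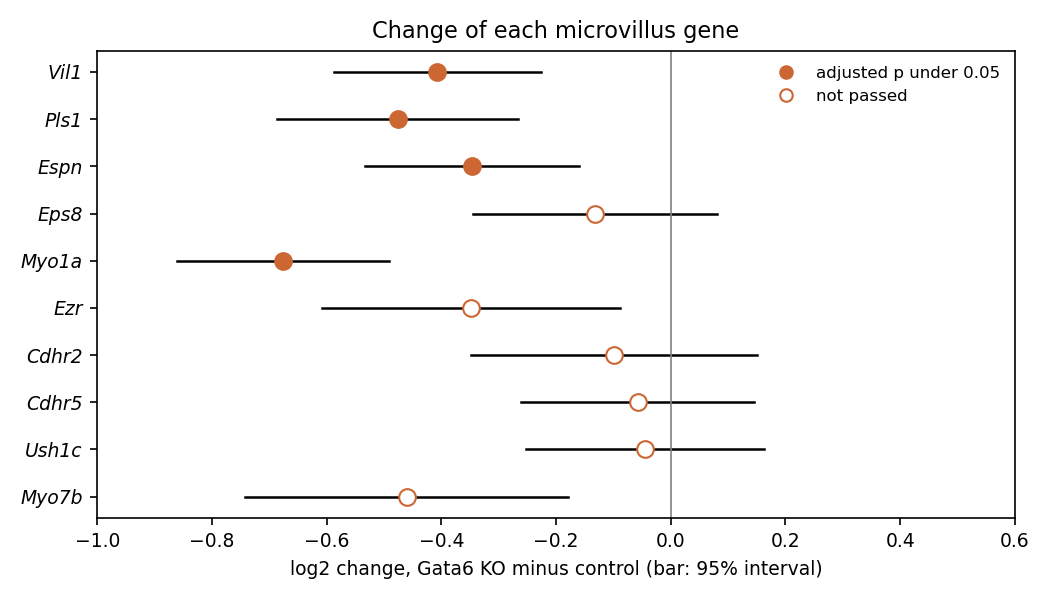
Log2 change, Gata6 KO minus control, of each gene (point) with its 95% interval (bar) from the fit over all genes; filled points passed at an adjusted p under 0.05. Myo1a stands furthest from 0 at -0.68, and the intervals of Eps8, Cdhr2, Cdhr5 and Ush1c include 0.

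The members were also set against Cdhr2, Cdhr5 and Ush1c on the same array, as ratios that a shift of a whole array on the log2 scale leaves as they are. These 3 references were chosen after their small changes were seen, so the ratios are a description, with no test, and largely restate each member's own change. Relative to Cdhr5, Myo1a stood at 0.60, 0.53 and 0.53 on the log2 scale in controls and at -0.03, -0.10 and -0.08 in the Gata6 KO arrays, a change of -0.62. It was -0.63 relative to Ush1c and -0.58 relative to Cdhr2. Pls1 changed by -0.42 relative to Cdhr5, Myo7b by -0.40 and Vil1 by -0.35. Between the protocadherins themselves, Cdhr2 over Cdhr5 moved by -0.04. Myo7b belongs to the adhesion complex too, so these ratios compare the members with those 3 genes and not with the whole complex.

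Across arrays, the members shared an order within each group. Control replicate 1 was the lowest control in 9 of the 10 members, while it was lowest in 27.9% of all genes, and Ezr was the exception. Gata6 KO replicate 3 was the highest Gata6 KO array in 9 of the 10, against 32.1% of all genes, with Espn the exception. The members come from the same arrays, so these counts are not independent of each other. The part of what sets control replicate 1 apart for Car1 in the members' changes was not tested. Without that array, Myo1a, Pls1 and Vil1 were called (adjusted p 0.0111, 0.0298 and 0.0415) and Espn was not (0.0572). Without control replicates 1 and 3 together, which leaves 1 control assumed to vary like the other group, 0 members were called, with log2 changes of -0.75 for Myo1a and -0.49 for Vil1.

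**Figure D3:**
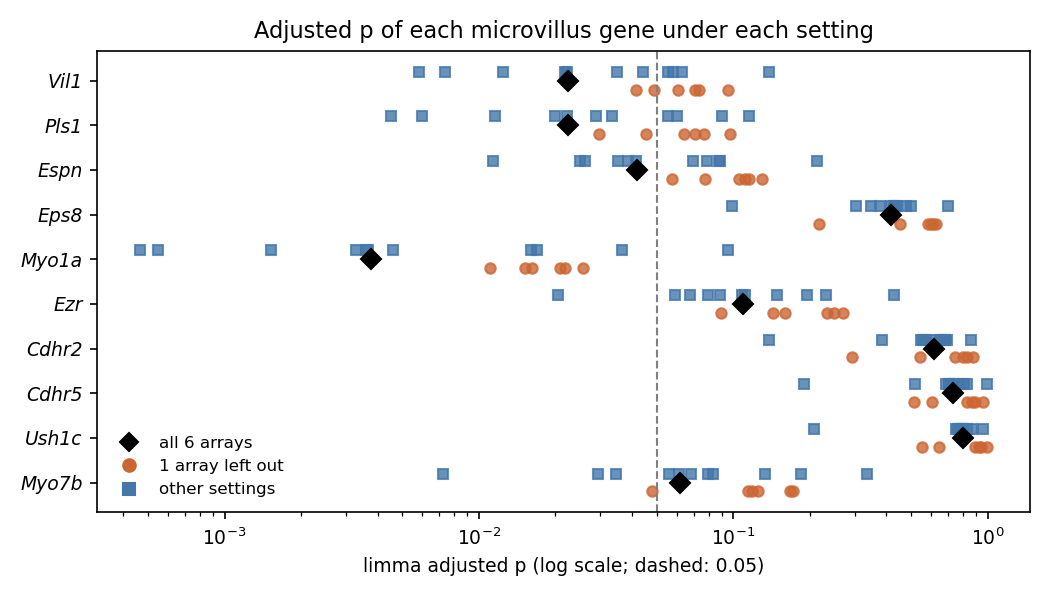
Limma adjusted p (horizontal axis, log scale) of each gene with all 6 arrays (diamond), with 1 array left out (orange) and under the other settings (blue); the dashed line marks 0.05. Each orange point of Myo1a lies left of the line, those of Vil1 and Pls1 lie on both sides, and those of Espn lie right of it.

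Other genes of the brush border were taken from lists written by role. The adhesion complex has 2 more parts, both of which lay lower with groups apart. Anks4b, the ankyrin repeat scaffold that binds harmonin and myosin 7b, fell 1.56-fold, from 7.38, 7.09 and 7.28 to 6.47, 6.63 and 6.73 (log2 change -0.64, SE 0.11, limma adjusted p = 0.0147). It no longer passed when control replicate 3 (0.0649) or Gata6 KO replicates 1 (0.0534) or 2 (0.0652) were left out. Calml4, the light chain of myosin 7b, had a log2 change of -0.43 (SE 0.13) and did not pass (limma adjusted p = 0.0977). Within this complex, the motor with its light chain and Anks4b had log2 changes of -0.64 to -0.43, and the protocadherins with harmonin -0.10 to -0.04. This grouping follows the values themselves, and the difference was not tested. Of the 6 genes of the complex only Anks4b was called, against 3.25% of all genes called lower.

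Of 13 further genes of the actin core and tip 2 fell and 0 rose, against 3.25% of all genes lower and 4.99% higher. Their median log2 change was 0.07. Cobl, which nucleates new filaments, fell 1.81-fold (log2 change -0.86, SE 0.10, limma adjusted p = 0.00370), a call that held whichever of the 6 arrays was left out. It read 6.17, 6.15 and 5.97 in controls and 5.10, 5.24 and 5.37 in the Gata6 KO arrays. Baiap2l2, an inverse-BAR protein that binds membrane, fell 1.40-fold (log2 change -0.48, SE 0.08, limma adjusted p = 0.0153). Its adjusted p rose to 0.0603 with control replicate 3 left out, and to 0.0534, 0.0592 and 0.0530 with each Gata6 KO array left out, so no call was made.

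Among 15 further linkers of membrane and cytoskeleton 4 fell and 2 rose, against 3.25% of all genes lower and 4.99% higher. Pdzk1, a PDZ scaffold that holds transporters in the apical membrane, fell 7.96-fold, from 6.10, 7.56 and 7.03 to 3.61, 3.58 and 4.52 (log2 change -2.99, SE 0.40, limma adjusted p = 0.00620). Mpp1, a palmitoylated membrane scaffold, fell 2.62-fold (log2 change -1.39, SE 0.12, limma adjusted p = 0.00144). Slc9a3r1, or NHERF1, which binds ezrin, fell 1.44-fold from 9.44, 9.50 and 9.66 to 9.03, 8.91 and 9.08 (log2 change -0.53, SE 0.09, limma adjusted p = 0.0167). Epb41l3, a protein of the band 4.1 family, was the other that fell, by 0.62 on the log2 scale (SE 0.10). In the other direction, Stk10, a kinase that phosphorylates ezrin and its relatives, rose 1.74-fold (log2 change 0.80, SE 0.14, limma adjusted p = 0.0173). Rdx, radixin, a relative of ezrin, rose 1.40-fold (log2 change 0.49, SE 0.11, limma adjusted p = 0.0356). Without control replicate 3, Pdzk1 and Mpp1 kept the call (0.0392 and 0.0132), while Slc9a3r1, Epb41l3, Stk10 and Rdx did not (0.0576, 0.0530, 0.0737 and 0.119). Slc9a3r1 was also not called when the first or second Gata6 KO array was dropped (0.0554 and 0.0740), Stk10 when any one of the 3 Gata6 KO arrays was (0.0554 to 0.0653) and Rdx with any array but control replicate 2 left out (0.0589 to 0.129).

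Below the microvilli, the terminal web of myosin and spectrin had 0 calls among 13 measured genes, with log2 changes from -0.11 to 0.32. Of these changes 11 were positive. The groups lay apart with the Gata6 KO arrays higher in 6 genes, against 16.8% of all genes, and lower in 1, against 12.6%. Apical trafficking and polarity genes, such as the motor and syntaxin mutated in microvillus inclusion disease, Myo5b and Stx3, had 0 calls among 20, with log2 changes from -0.37 to 0.40. Here the groups lay apart with the Gata6 KO arrays lower in 6 genes, Stx3 (-0.21) among them, against 12.6% of all genes. They lay apart and higher in 3, against 16.8%. The groups of Myo5b overlapped (-0.02). Of the 9 measured hair cell partners 0 were called, and 6 had a mean signal below the array medians.

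Of 26 measured paralogues of the members, 4 rose and 2 fell, with a median log2 change of 0.14. Of all genes, 4.99% were called higher and 3.25% lower. A mean signal below the array medians was found in 7 of the 26. Those that rose were Pls3, the plastin of many non-intestinal cells (log2 change 0.78, SE 0.15), Avil, or advillin (0.77, SE 0.14), Myo1c (0.49, SE 0.09) and Rdx. Myo7a, the sister motor of Myo7b in hair cells, fell by 0.58 (SE 0.11), and the hair cell protocadherin Pcdh15 fell by 0.33 (SE 0.07), with limma adjusted p of these 6 genes from 0.0201 to 0.0363. Avil had a control mean of 3.49 and Pcdh15 a Gata6 KO mean of 3.48, both near the array medians of 3.33 to 3.44. Pls3 rose while its intestinal sister Pls1 fell, and whether both transcripts come from the same cells of the whole ileum was not tested. Pls3 read 5.39, 5.44 and 4.91 in controls and 6.06, 6.14 and 5.89 in the Gata6 KO arrays. Without control replicate 3, Pls3 alone of these 6 kept the call (0.0374), which it lost without any one of the Gata6 KO arrays (0.0601 to 0.106). Pcdh15 lost its call whichever of the 6 arrays was dropped (0.0615 to 0.119), and with the mean of its probe sets in place of the brightest its log2 change was -0.07 (limma adjusted p = 0.646). Scin, a severing protein of the villin family, had a log2 change of -0.66 (SE 0.19) and did not pass (limma adjusted p = 0.0866).

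**Figure D4:**
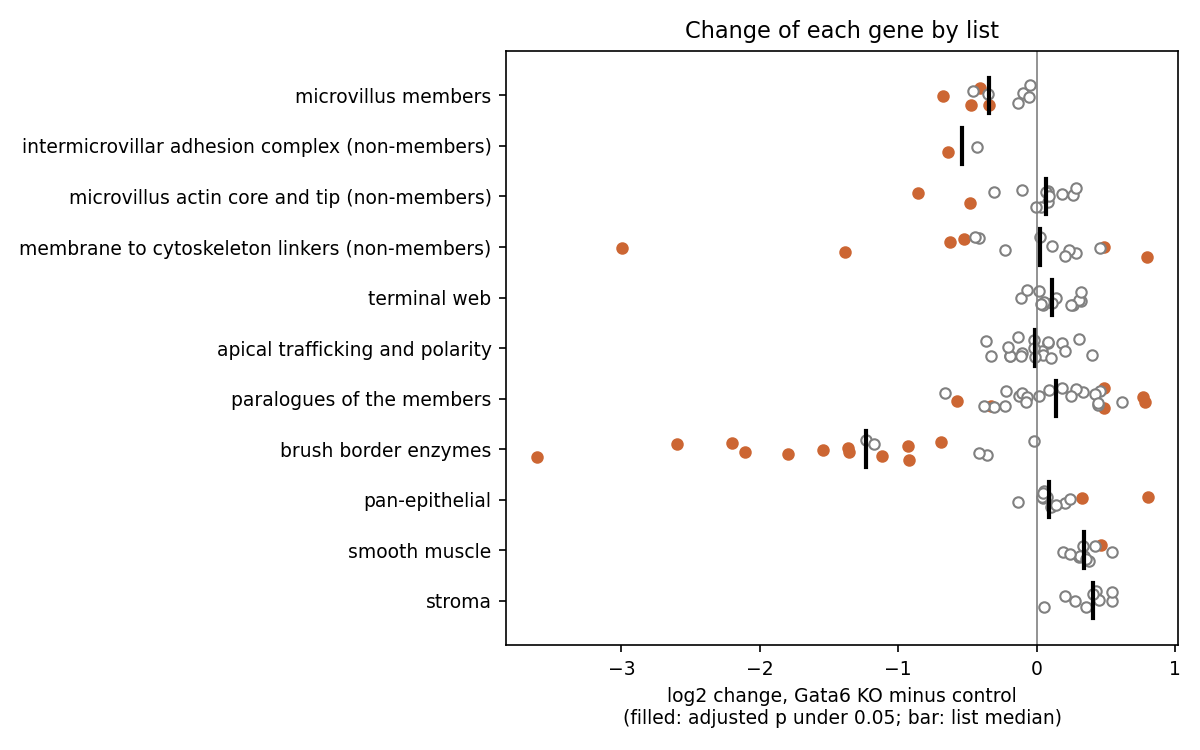
Log2 change, Gata6 KO minus control (horizontal axis), of each gene by list; filled points passed at an adjusted p under 0.05 and the black bar is the list's median. The 10 microvillus genes lie between -0.68 and -0.04, and the brush border enzymes reach to -3.61.

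The enzymes that sit on the microvillus membrane were set beside these structure genes. Of 17 measured genes in this list 12 fell and 0 rose, against 3.25% of all genes lower and 4.99% higher. Their median log2 change was -1.23 against -0.35 for the 10 members, and the difference between the lists was not tested. The list also holds Cubn and Amn, which form an uptake receptor and are not enzymes. Both are in the count of 12, with log2 changes of -2.20 and -0.92. Maltase-glucoamylase, Mgam, fell 3.47-fold (log2 change -1.80, SE 0.10), the aminopeptidase Enpep 4.31-fold (-2.11, SE 0.18), the peptidyl dipeptidase Ace 2.57-fold (-1.36, SE 0.12) and Sis, the sucrase-isomaltase, by 3.61 on the log2 scale (SE 0.40), with limma adjusted p of 3.04e-04 to 0.00319. Each of these 4 changes was larger than that of any of the 10 members. Without control replicate 3 the count was 8, and it was 8 as well when the second Gata6 KO array was dropped.

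Markers of the tissue's cells were read beside these results, where 4.99% of all genes were called higher and 3.25% lower. Of 12 pan-epithelial genes 2 rose and 0 fell: Esrp1, an epithelial splicing factor, by 0.80 (SE 0.07) and the keratin Krt19 by 0.33 (SE 0.07). The mean log2 signal of the list was 9.03 to 9.19 on control and 9.21 to 9.35 on Gata6 KO arrays. Of 11 smooth muscle genes 1, Tagln, rose by 0.46 (SE 0.10), and all 11 changes were positive, with list means of 7.20 to 7.37 on control and 7.40 to 7.74 on Gata6 KO arrays. All 9 stromal genes had positive changes with 0 calls, and list means of 7.43 to 7.80 and 7.84 to 8.11. The lymphoid list, with 0 of 12 called, had means of 3.94 to 4.09 and 3.93 to 4.20. The nerve and glia list, with 0 of 8 called, had means of 3.37 to 3.60 and 3.58 to 3.65, and the endothelial list, with 0 of 6 called, 4.89 to 5.00 and 4.94 to 5.06. Of 7 pancreatic genes 1, Ctrb1, fell, by 0.63 (SE 0.15), with list means of 2.78 to 3.05 and 2.74 to 2.81. Esrp1 kept its call whichever of the 6 arrays was dropped, and Krt19 lost it each time (limma adjusted p of 0.0704 to 0.135). Tagln kept it only when control replicate 2 or Gata6 KO replicate 1 was dropped (0.0498 and 0.0365), and Ctrb1 only when control replicate 2 was (0.0360). Centring on the pan-epithelial mean took Krt19 to 0.17 and Tagln to 0.30, and dropping control replicates 1 and 3 together took Ctrb1 to -0.38, none of them called. On this log scale no marker is at a true zero. The part of muscle and stroma in the decreases was not tested. With each array centred on the pan-epithelial mean, Myo1a, Pls1, Vil1, Espn, Myo7b and Ezr were called lower, with log2 changes of -0.84 to -0.51, on a scale that shifts the median of all genes to -0.17. On that scale 1603 of all 19938 genes were called lower, against 648 without the centring. The mean used for it includes Esrp1 and Krt19, which rose.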

How the data were processed

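Total RNA of whole ileum was hybridised to mouse Gene 1.0 ST arrays, 3 per group, and the deposited table gives one log2 value per array and probe set. The labels name Affymetrix Expression Console as the authors' software. How they corrected background and normalized, and on which genome build, was not stated in what was used here; that the scale is log2 was read from the span of the values. Of 35557 probe sets, 21789 have 1 gene symbol; for each of 999 genes with several, the brightest by its 6-array mean was kept, giving 19938 genes. Each was tested with limma 3.58.1 in R 4.3.3 (lmFit, eBayes, two-sided), with Benjamini-Hochberg adjustment over all genes and a threshold of 0.05. SE and 95% intervals are the moderated ones. The fit was tested on simulated arrays. The number of arrays limits the precision. The p-values set each group difference against the spread between these mice, moderated over all genes. Replicate numbers were not taken as pairs: deviations of same-numbered arrays correlated at 0.04, -0.04 and 0.15. The members and lists were chosen with earlier results of these data known. Of 213 list entries, 200 were measured. Named genes were the members, Gata6, Gata4 (log2 change -0.11, not called), Xist, Eif2s3y and Car1 as array checks, and up to 4 called genes per list and direction. Outside this rule, Cubn and Amn were named as non-enzymes of the enzyme list, and Myo5b and Stx3 as examples of theirs. Eps8l2, Eps8l3, Calml4 and Scin were named after their values were seen. In all, 17 alternatives were run. Promoter windows are RefSeq's. Figures were drawn with matplotlib 3.10.9.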

Additional observations from a re-analysis of the deposited data

How the results depend on the processing

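Of 170 refits of single members, 136 kept direction and call status, 28 lost a call, 5 gained one and 1 turned sign. The 136 include members that were never called, since only the 4 called members had a call to lose. Of the 17 alternatives, Myo1a was called in 16, Vil1 in 9, Pls1 in 9 and Espn in 6. The sign turned for Ush1c, which was not called and read 0.012 with each array centred on its median. Gata4, also not called, read 0.022 without control replicates 1 and 3. The count of members called lower, 4 with all arrays, was 1 to 3 with 1 array left out, 1 (Myo1a) with every probe set on its own, 1 without moderation and 1 with the replicate number as a block, and 0 without control replicates 1 and 3; it lay between 3 and 6 under the other scalings, filters and variance settings. No member was called higher under any of the 17 alternatives. With all arrays, limma also gave 0 higher at an unadjusted p under 0.05. That outcome was fixed, since every member's change was negative there. The block lost the calls of Vil1, Espn and Pls1 (limma adjusted p = 0.0579, 0.0692 and 0.0556). Over all genes, 648 were lower and 995 higher, against 565 and 1562 after centring on the median, 1603 and 444 after centring on the pan-epithelial mean, 406 and 491 over every probe set, 106 and 168 without moderation, and 11 and 25 without control replicates 1 and 3. With 1 array left out the lower count was 277 to 597 and the higher 320 to 806. No signal over background is given per probe set; the array medians were 3.33 to 3.44.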
